A study of Arabidopsis thaliana with 10 samples.

Results

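The genes described here are 6 loci of Arabidopsis thaliana whose transcripts are known to accumulate when oxygen is low: AT3G10040 (HRA1), AT4G27450, AT3G27220, AT1G33055, AT1G19530 and AT5G10040. They were chosen by locus, with the signals of these same arrays over the time course already known, so their time courses are given as a description with no test. Each had 1 probe set of its own, and they are 6 of the 13286 genes with a locus in the probe table. Transcripts were measured on Affymetrix ATH1 arrays, which carry short oligonucleotide probes, in whole shoots of seedlings grown on MS medium. All plants were shr-2 mutants that carried pSHR:SHR-GR, the transcription factor SHORT-ROOT fused to the glucocorticoid receptor and driven by its own promoter, so the controls lacked normal SHORT-ROOT as well. Dexamethasone (DEX) is the steroid that lets such a fusion enter the nucleus. The groups were a control at 0 hr and plants given 10 µM DEX for 3, 6, 12 or 24 hr, with DEX applied at 10 days after germination, or at 9 for the 24 hr plants. Each of the 5 groups had 2 arrays, which the design text calls biological replicates.

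Plant cells sense oxygen through ethylene response factors of group VII. In air, plant cysteine oxidases oxidise the amino-terminal cysteine of these factors, which marks them for degradation. When oxygen falls, the factors persist and switch on a core set of genes, among them those of alcoholic and lactic fermentation and several proteins of unknown function. HRA1 is a trihelix transcription factor of that core set which restrains the group VII factors, and the young shoot apex is known as a place of low oxygen within the plant.

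The 10 arrays had median signals of 181 to 192, and the 2 arrays of a group correlated at 0.986 to 0.991 over all probe sets, on the scale of log2 of the signal plus 16. Array 1 of 12 hr and array 2 of 24 hr correlated with each other at 0.991, above their correlation with their own partners. No mock-treated plants were among the samples, so DEX, time of day, age and handling cannot be told apart in any comparison with 0 hr. Of 10 shoot markers none had a named probe set. Of 10 root markers 2 did, EXPA7 and EXPA18, expansins of root hairs, and their summed signal was 90.7 and 104 at 0 hr, 62.5 and 71.1 at 3 hr, 16.2 and 32.6 at 6 hr, 61.4 and 65.1 at 12 hr and 88.4 and 92.3 at 24 hr. Both were weak: by mean signal EXPA7 stood at percentile 12.3 of all probe sets and EXPA18 at percentile 32.7. PORB, an enzyme of chlorophyll synthesis picked afterwards to check for green tissue, had signals of 5345 to 8966 over the 10 arrays.

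The 6 genes were higher after 6 hr of DEX than in the controls, and after 3 hr none but AT5G10040 was. At 6 hr both arrays lay above both control arrays for 6 of 6 genes, a position that 21.2% of all probe sets held. At 3 hr HRA1 and AT3G27220 lay below both control arrays (27.3% of all probe sets), AT5G10040 lay above them (21.7%), and the other 3 overlapped with them. At 12 hr 5 of the 6 lay above the controls (19.3%) and AT3G27220 lay below them (26.4%). At 24 hr 4 lay above the controls (18.6%), and AT1G19530 and AT5G10040 overlapped with them. The median log2 fold change of the 6 genes over 0 hr was -0.20, 1.36, 0.62 and 0.38 at 3, 6, 12 and 24 hr, on the scale of log2 of the signal plus 16. The medians of all 22746 probe sets were -0.03, -0.05, -0.03 and -0.03. The median of the 6 at 3 hr was -0.07 without control replicate 1 and -0.13 with an offset of 64, and at 6 and 12 hr an offset of 64 gave 0.78 and 0.34. In whole shoots, a change in the number of expressing cells and a change in RNA per cell cannot be told apart, for rises and falls.

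**Figure D1:**
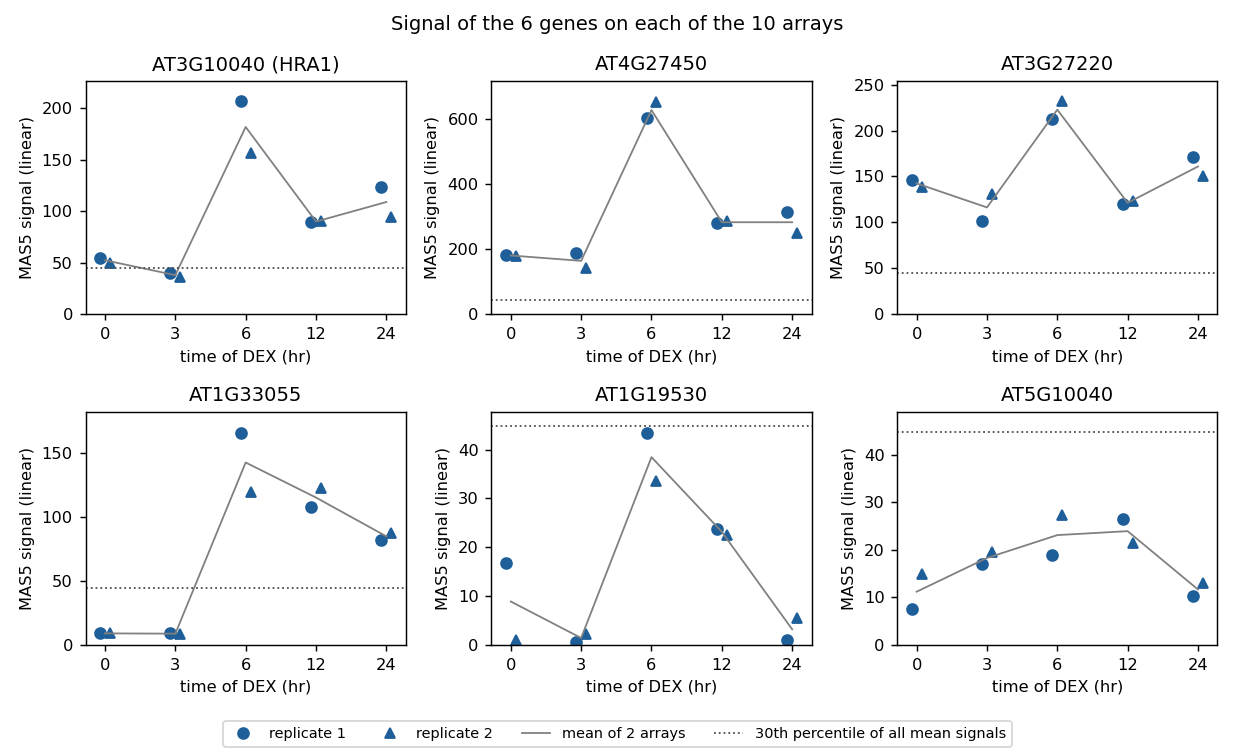
MAS5 signal on a linear scale (vertical axis, from 0) against the time of DEX in hours for each of the 6 genes, with 1 point per array, circles for replicate 1 and triangles for replicate 2, a grey line through the means of 2 arrays and a dotted line at a signal of 44.8, the 30th percentile of the mean signals of all probe sets. Both 6 hr arrays lie above both 0 hr arrays in every panel, and AT1G19530 and AT5G10040 stay under the dotted line on all 10 arrays.

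HRA1, the transcription factor of the group, had signals of 54.7 and 50.3 on the control arrays, 39.8 and 36.2 at 3 hr, 207 and 157 at 6 hr, 89.7 and 90.5 at 12 hr and 123 and 94.9 at 24 hr. Its 3 hr arrays were the lowest of the 10 and its 6 hr arrays the highest, and no later array fell back to the control level. The log2 fold change over 0 hr was -0.34, 1.52, 0.63 and 0.86 at the 4 times in turn (SE 0.20 each), and with an offset of 64 in place of 16 it was -0.19, 1.07, 0.40 and 0.57. The mean at 6 hr was 3.47-fold that of the controls, at 182 ± 35.8 against 52.5 ± 3.10 (SD, n = 2 arrays each). The groups ran in the order 3, 0, 12, 24 and 6 hr with no overlap between neighbours, but the 12 hr and 24 hr groups were separated by less than the spread of the 24 hr arrays.

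AT4G27450 encodes a protein with YGL and LRDR motifs of the aluminium-induced type. Its control arrays read 182 and 179, its 3 hr arrays 187 and 141, its 6 hr arrays 603 and 653, its 12 hr arrays 280 and 286 and its 24 hr arrays 315 and 251. The 3 hr arrays straddled the controls, and the 12 and 24 hr groups overlapped each other between the controls and 6 hr. Its log2 fold change over 0 hr was -0.14, 1.71, 0.60 and 0.60 in the order of time (SE 0.15 each), and the value at 3 hr was 0.05 without replicate 2 of 3 hr and -0.32 without replicate 1. Its change at 6 hr was 1.77 with an offset of 4 and 1.499 with an offset of 64.

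AT3G27220, which encodes a Kelch-repeat protein, showed smaller differences. It read 146 and 139 on the control arrays, 102 and 131 at 3 hr, 213 and 232 at 6 hr, 120 and 123 at 12 hr and 171 and 150 at 24 hr. The 3 and 12 hr groups lay below the controls and overlapped each other, and the 24 hr group lay just above the controls. At 6 hr the mean was 1.56-fold that of the controls, a log2 fold change of 0.59, and at 3, 12 and 24 hr the log2 fold change was -0.27, -0.21 and 0.16 (SE 0.16 each). The value at 3 hr was -0.11 without replicate 1 of 3 hr and -0.43 without replicate 2, and that at 24 hr was 0.07 and 0.24 without replicates 1 and 2 of 24 hr.

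AT1G33055, which encodes a small protein of unknown function, went from a very low signal to a clear one. The control arrays read 9.05 and 9.23 and the 3 hr arrays 9.33 and 8.48, all far under 44.8, the 30th percentile of mean signals. It then read 165 and 119 at 6 hr, 108 and 122 at 12 hr and 82.0 and 87.8 at 24 hr. With no separation between the controls and 3 hr, the 3 later groups lay above the controls on every array, with 6 and 12 hr overlapping each other and 24 hr below both. The log2 fold change was 2.64 at 6 hr, 2.38 at 12 hr and 2.00 at 24 hr (SE 0.22 each). With no detection calls, the size of a change from so low a signal has no fixed value: at 6, 12 and 24 hr it was 3.46, 3.18 and 2.76 with an offset of 4 and 1.49, 1.29 and 1.025 with an offset of 64.

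AT1G19530, a further gene of unknown function, was dim on all 10 arrays, at signals under 44.8. It read 16.7 and 1.09 on the control arrays, 0.687 and 2.22 at 3 hr, 43.3 and 33.6 at 6 hr, 23.8 and 22.5 at 12 hr and 1.00 and 5.46 at 24 hr. The 6 and 12 hr arrays were the 4 highest, and the 3 and 24 hr groups overlapped with the controls. Its log2 fold change over 0 hr was -0.44, 1.20, 0.73 and -0.31 in the order of time (SE 0.31 each), and its 2 control arrays lay far apart. Without control replicate 1 the 4 values were 0.03, 1.67, 1.20 and 0.16, and without control replicate 2 they were -0.91, 0.73, 0.26 and -0.78, so those at 3 and 24 hr have no settled direction. The value at 24 hr was -0.14 and -0.48 without replicates 1 and 2 of 24 hr. With an offset of 4 the values at 6 and 12 hr were 2.04 and 1.40, and with an offset of 64 they were 0.50 and 0.27.

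AT5G10040, whose function is unknown too, was as dim on all 10 arrays. It read 7.59 and 14.8 on the control arrays, 17.1 and 19.5 at 3 hr, 18.9 and 27.3 at 6 hr, 26.4 and 21.5 at 12 hr and 10.3 and 13.02 at 24 hr. The groups at 3, 6 and 12 hr lay above the controls. The 6 hr arrays overlapped with the 3 hr and with the 12 hr arrays, and the highest mean was at 12 hr. The log2 fold change over 0 hr was 0.35, 0.53, 0.56 and 0.04 from the first time of DEX to the last (SE 0.25 each). Without control replicate 1 these were 0.15, 0.33, 0.37 and -0.16, and without control replicate 2 the values at 3, 6 and 24 hr were 0.54, 0.72 and 0.23. The value at 24 hr also changed sign without replicate 2 of that time, at -0.03. With an offset of 4 the values at 3, 6 and 12 hr were 0.59, 0.86 and 0.91, and with an offset of 64 they were 0.13, 0.21 and 0.23. Among the 6824 probe sets at or under the 30th percentile, 10.1% had both 6 hr arrays above both control arrays, against 21.2% of all.

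**Figure D2:**
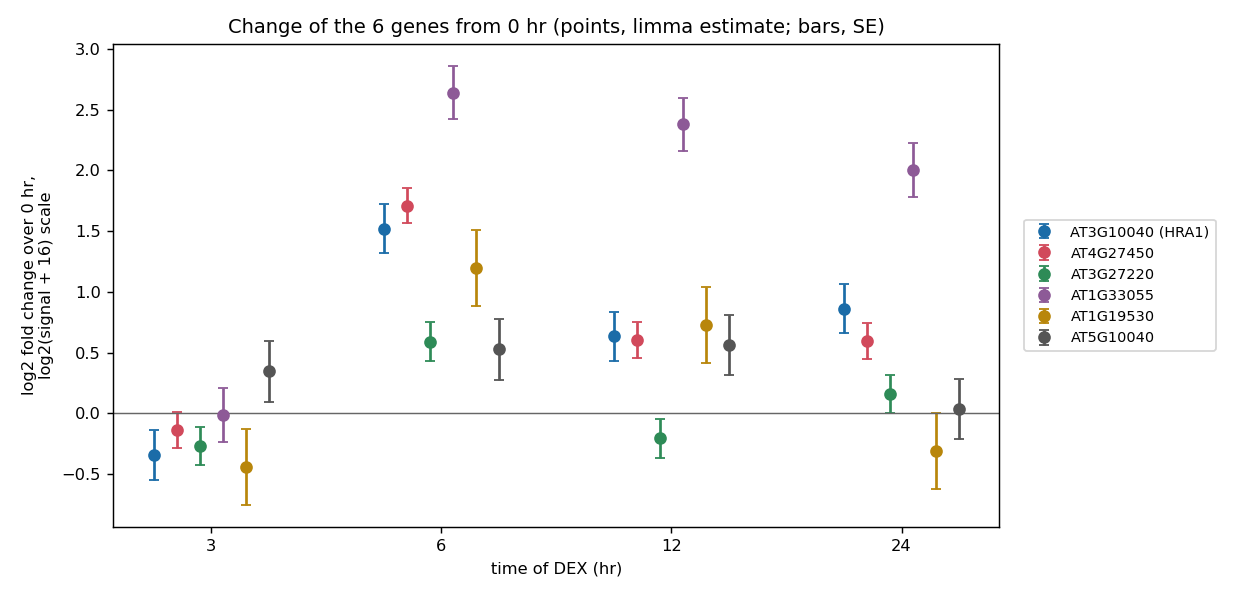
Log2 fold change over 0 hr (vertical axis, scale of log2 of the signal plus 16) of the 6 genes at each time of DEX in hours, as limma estimates with bars of 1 SE. AT1G33055 stands at 2.64, 2.38 and 2.00 at 6, 12 and 24 hr, whereas AT5G10040 and AT3G27220 stay at or under 0.59 at each time.

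The courses after 6 hr are given as a description with no test. At 24 hr both arrays lay below both 6 hr arrays for 6 of 6 genes (22.5% of all probe sets), and at 12 hr for 4 of 6, HRA1, AT4G27450, AT3G27220 and AT1G19530 (21.7%). The change from 6 to 12 hr was -1.11 for AT4G27450, -0.89 for HRA1, -0.80 for AT3G27220 and -0.47 for AT1G19530 on the log2 scale, and it was -0.26 for AT1G33055 and 0.04 for AT5G10040, whose groups overlapped. From 12 to 24 hr the change was -1.04 for AT1G19530 (SE 0.31), -0.38 for AT1G33055 (SE 0.22) and -0.53 for AT5G10040 (SE 0.25). It was 0.23 for HRA1 (SE 0.20), 0.36 for AT3G27220 (SE 0.16) and -0.01 for AT4G27450 (SE 0.15). The share of all probe sets with separated groups was not counted for this step.

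Across the 10 arrays the Pearson correlation of log2 signals ran from 0.07 to 0.95 over the 15 pairs of the 6 genes, a description only, since the genes were chosen on these arrays. HRA1 and AT4G27450 were the closest pair, at 0.95, and HRA1 and AT1G33055 correlated at 0.91. The 5 pairs with AT5G10040 ran from 0.07 to 0.49. The 4 genes above the 30th percentile of mean signals, HRA1, AT4G27450, AT3G27220 and AT1G33055, correlated at 0.53 to 0.95. AT1G33055 stood above that limit only through its 6, 12 and 24 hr arrays, with means of 9.14 at 0 hr and 8.90 at 3 hr. This grouping thus rests in part on the rise for which the genes were chosen.

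Other genes of the response to low oxygen were taken from a list of 58 loci written from general knowledge, of which 18 had a named probe set, 14 of them above the 30th percentile. ADH1, PDC1, the group VII factors and the plant cysteine oxidases were among those without one and are not analysed here. The platform annotation did not list 8730 of the 22746 probe sets, so such genes may be on the array without a name. At 6 hr 5 of the 18 rose, 0 fell and 13 did not pass by limma with Benjamini-Hochberg adjustment over all probe sets, whereas 5.17% of all probe sets were higher and 4.19% lower. The 5 were CML38, AT1G05575, WIP4, AT4G24110 and PPDK. The count was 3 when control replicate 2 or either 6 hr array was left out. The median log2 fold change of the 18 was 0.26, against -0.05 for all probe sets. The list of 58 was written with earlier results of these arrays known, so the direction of its genes is not independent evidence.

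CML38, a calmodulin-like calcium sensor, read 33.2 and 31.7 on the control arrays and 161 and 185 at 6 hr, a log2 fold change of 1.96 (SE 0.20, limma adjusted p = 9.43e-05). AT1G05575 read 106 and 55.5 on the control arrays and 351 and 312 at 6 hr, a log2 fold change of 1.89 (SE 0.26, limma adjusted p = 0.000977). WIP4 (AT4G10270), of a family of wound-responsive proteins, read 248 and 255 on the control arrays and 637 and 574 at 6 hr, a log2 fold change of 1.22 (SE 0.11, limma adjusted p = 3.05e-05). These 3 kept their call under each of the 17 alternative fits, with limma adjusted p of at most 0.0172. AT4G24110 rose by 0.99 (SE 0.23) from a mean control signal of 31.5, and PPDK, pyruvate orthophosphate dikinase, rose by 0.36 (SE 0.09). The limma adjusted p of AT4G24110 was 0.0216, and 0.0106 to 0.113 over the alternatives, with the call lost without either control array or either 6 hr array. That of PPDK was 0.0239, and 0.0127 to 0.166, with the call lost without control replicate 2, with either 6 hr array left out and with no variance trend.

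The enzymes of fermentation with a named probe set did not pass at 6 hr. PDC2, a pyruvate decarboxylase, stood at 0.09 (SE 0.07) and LDH, lactate dehydrogenase, at 0.16 (limma adjusted p = 0.508 and 0.460). HRU1, a universal stress protein, stood at -0.29 (limma adjusted p = 0.150). The log2 fold changes of the 13 that did not pass ran from -0.29 to 1.14, and AT2G15880, at 1.14, missed the threshold with a limma adjusted p of 0.0536. It passed with an offset of 64, after quantile normalization and without either 24 hr array, with adjusted p of 0.0152 to 0.250 over the alternatives.

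**Figure D3:**
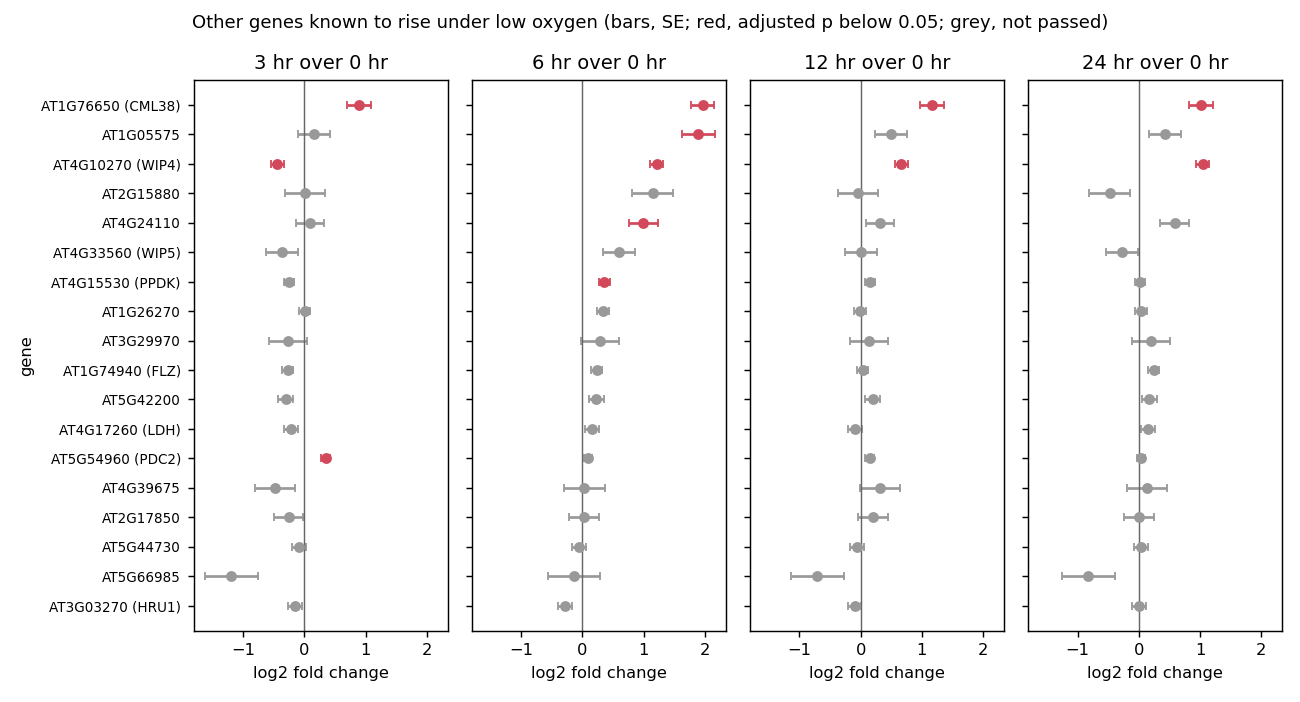
Log2 fold change over 0 hr (horizontal axes) of the 18 further genes known to rise under low oxygen at 3, 6, 12 and 24 hr of DEX, with bars of 1 SE, red where the limma adjusted p is below 0.05 and grey otherwise. Of the 18 genes 3, 5, 2 and 2 are red at the 4 times in turn.

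At the other times fewer of the 18 passed. At 3 hr PDC2 rose by 0.35 (SE 0.07) and CML38 by 0.90 (SE 0.20), WIP4 fell by 0.44 (SE 0.11) and 15 did not pass by limma (3.91% of all probe sets were higher and 4.31% lower). The count of 3 became 0 without control replicate 1, 1 without control replicate 2, 1 without either 3 hr array and 1 without the variance trend. At 12 hr WIP4 rose by 0.66 (SE 0.11) and CML38 by 1.17 (SE 0.20), and at 24 hr WIP4 rose by 1.04 (SE 0.11) and CML38 by 1.012 (SE 0.20), with 16 not passed at either time. At 12 hr the probe sets as a whole split into 1.27% higher and 0.33% lower, and at 24 hr into 0.717% and 0.242%. The 12 hr count of 2 became 0 without either control array and without either 12 hr array. WIP4 kept its call at 24 hr under each alternative (adjusted p of at most 0.0141), and CML38 lost it under 11 of 17, with limma adjusted p of 0.0106 to 0.176. Those 11 left out any 1 of the arrays other than the 3 hr ones, used an offset of 64, had no variance trend or added the replicate block.

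Between 3 and 6 hr 8 of the 18 rose, 1 fell and 9 did not pass by limma (5.16% of all probe sets were higher and 3.99% lower). AT1G05575 rose by 1.74 (SE 0.26), WIP4 by 1.66 (SE 0.11), CML38 by 1.06 (SE 0.20) and PPDK by 0.61 (SE 0.09) on the log2 scale, and PDC2 fell by 0.26 (SE 0.07). The total of 9 was 4 when replicate 2 of 3 hr was left out, and 4 and 5 for replicates 1 and 2 of 6 hr. From 6 to 12 hr WIP4 fell by 0.55 (SE 0.11) and AT1G05575 by 1.40 (SE 0.26), and 16 did not pass (1.68% of all probe sets were lower). That count of 2 was 0 without either 6 hr array, without either 12 hr array and without the variance trend, and 4 with an offset of 64.

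Some genes of neighbouring responses also differed from the controls at 6 hr. Their counts are to be read against the 5.17% of all probe sets that were higher at 6 hr and the 4.19% that were lower. Of 22 listed genes of sugar starvation 7 were measured, and at 6 hr 5 of them rose, 1 fell and 1 did not pass by limma, with a median log2 fold change of 1.39 against -0.05 for all probe sets. AT2G20670 rose by 3.31, AT3G15450 by 3.37, AT1G23390, a Kelch-repeat F-box protein, by 2.65, AT3G15630 by 1.39 and AKINBETA1, a subunit of the energy-sensing kinase SnRK1, by 1.21, and MGL fell by 0.47. The MGL call was lost under 4 of 17 alternatives, namely without control replicate 2, with either 6 hr array left out and with no variance trend (limma adjusted p of 0.00876 to 0.136). At 3 hr 2 of the 7 rose already, AT2G20670 by 1.06 (SE 0.10, limma adjusted p = 9.00e-05) and AT3G15450 by 0.43. The other 5 did not pass at 3 hr (3.91% of all probe sets were higher). Of 11 touch and calcium genes 4 were measured and 3 rose at 6 hr (5.17% of all probe sets), AT4G27280 by 2.56, STZ by 2.36 and WRKY53 by 1.51, and CML39 did not pass. At 3 hr CML39 was the 1 of the 4 that passed, higher by 1.69 (SE 0.24, limma adjusted p = 0.00152), where 3.91% of all probe sets were higher. From 3 to 6 hr it fell by 1.72 (limma adjusted p = 0.00118). Its mean signals were low, at 3.50, 47.4 and 3.00 at 0, 3 and 6 hr. Both lists were written with earlier results of these arrays known, so their direction is not independent evidence. Of 16 clock genes 3 were measured, and 2 rose at 6 hr (5.17% of all probe sets), AT4G33980 by 1.07 and COR27 by 0.72, with GI at 0.04 (limma adjusted p = 0.819). The root marker EXPA18 fell by 1.52 at 6 hr (SE 0.28, limma adjusted p = 0.00599), to signals of 30.8 and 10.0, both under 44.8. EXPA7, the other one measured, did not pass (-0.54, limma adjusted p = 0.290) and read under 44.8 on every array. The part that sugar supply, touch, the clock or root tissue has in the change of the 6 genes was not tested.

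The family with YGL and LRDR motifs that holds AT4G27450 had 4 further members, all measured, of which 1 rose at 6 hr (5.17% of all probe sets). AT3G15450, which the sugar starvation list holds as well, rose at each time, from 575 and 637 on the control arrays to 869 and 782 at 3 hr, 5997 and 6864 at 6 hr, 3334 and 3463 at 12 hr and 1776 and 2255 at 24 hr. Its log2 fold change of 3.37 at 6 hr (SE 0.11, limma adjusted p = 3.24e-08) lies beside 1.71 for AT4G27450, and its 0.43 at 3 hr (limma adjusted p = 0.0392, and 0.0142 to 0.212 over the alternatives) beside -0.14. The 3 hr call was lost under 8 of 17 alternatives. The others did not pass at any time of DEX, with AT5G43830 at 0.32, AILP1 at 0.10 and AT3G22850 at -0.18 at 6 hr (limma adjusted p = 0.0715, 0.429 and 0.394).

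The genes of most like pattern were sought among 8728 probe sets of 1 named gene above the 30th percentile, by the Pearson correlation over the 10 arrays with the mean of the 6 genes' standardized log2 signals. The closest was EXO (EXORDIUM), which encodes an extracellular protein of cell expansion, at 0.98. Its signal was 1019 and 1101 on the control arrays, 1136 and 1117 at 3 hr, 3942 and 3853 at 6 hr, 1907 and 1791 at 12 hr and 1805 and 1697 at 24 hr. It was followed by AT2G25200 at 0.98, AT4G37240 at 0.98, AT3G46600, a GRAS-family gene, at 0.98, AT5G08520, a MYB-like gene, at 0.98 and AT2G24550 at 0.97. Their log2 fold changes at 6 hr were 1.86 for EXO, 1.64 for AT2G25200, 0.86 for AT4G37240, 1.35 for AT3G46600, 0.80 for AT5G08520 and 1.74 for AT2G24550.

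Taken singly, the genes had different closest partners. AT1G33055 was closest to AT1G23390 at 0.996, AT4G27450 to EXO at 0.98, HRA1 to AT5G37990 at 0.97, AT1G19530 to AT2G29300 at 0.94, AT3G27220 to AT1G33050 at 0.94 and AT5G10040 to AT1G23040 at 0.93. With 10 arrays in 5 groups such correlations mostly follow the 5 group means.

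**Figure D4:**
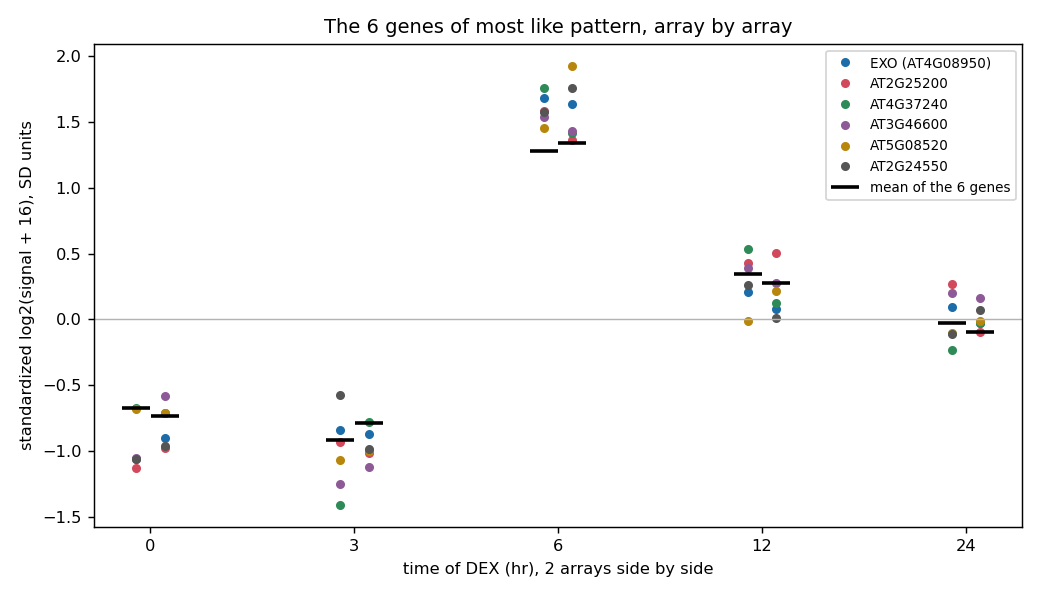
Standardized log2 of the signal plus 16 (vertical axis, in SD units of each gene over the 10 arrays) against the time of DEX in hours, with the 2 arrays of a group side by side, for the 6 genes of most like pattern (points) and the mean of the 6 genes known from low oxygen (black bars, -0.68 and -0.73 at 0 hr, 1.28 and 1.34 at 6 hr). All genes are highest on the 6 hr arrays, and the 12 and 24 hr arrays lie between those and the 0 and 3 hr arrays.

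Of the 6 genes 3 have an annotated extent in TAIR10.1 that overlaps with that of the flanking gene, and the strand of the deposited probe sets was not used here. AT4G27450 overlaps with PORB, which rose by 0.49 at 3 hr, 0.60 at 6 hr and 0.56 at 12 hr (SE 0.09 each, limma adjusted p = 0.00551, 0.00135 and 0.00824), whereas AT4G27450 stood at -0.14, 1.71 and 0.60. The PORB call was lost at 3 hr under 1 alternative and at 12 hr under 4, with limma adjusted p of 0.00108 to 0.0607 and of 0.00112 to 0.115. AT1G33055 overlaps with AT1G33050, which read 377 ± 8.65 at 0 hr and 463 ± 3.06 at 6 hr (SD, n = 2 arrays each), a log2 fold change of 0.29 (limma adjusted p = 0.0697) beside 2.64 for AT1G33055. From 3 to 6 hr AT1G33050 rose by 0.49 (limma adjusted p = 0.00595), beside 2.65 for AT1G33055, and kept its call under each of the 17 alternatives. Over that step PORB changed by 0.11 (limma adjusted p = 0.531). TGA4, which overlaps with AT5G10040, had no named probe set. Of the 12 genes that flank the 6 on either side 7 were measured, and PORB was the 1 of the 7 that passed at 6 hr, where 5.17% of all probe sets were higher and 4.19% lower.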

How the data were processed

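The values are MAS5 signal intensities on a linear scale, one per probe set and array, which the authors deposited. Affymetrix Expression Console 1.1 is the software named, per the submitters' processing notes. Background correction and scaling target are not given in the sources used here. The mean without the top and bottom 2% was 500.0 on each array. Total RNA of 300 ng was labelled with biotin, per the labels' protocols. Of 22810 probe sets 64 controls were set aside. The platform annotation named 1 gene for 13513 of the other 22746, several for 503, and did not list 8730. Names came from TAIR10.1, from which no coordinates are printed.

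Here log2 of the signal plus 16 was fitted by limma (version 3.58.1, R 4.3.3). The model gave each group a mean and used all 10 arrays, variances shrunk towards a trend on intensity, 5 residual and 5.86 prior degrees of freedom, two-sided tests, Benjamini-Hochberg adjustment over 22746 probe sets and a threshold of 0.05. SEs come from this fit. Precision is limited by 2 arrays per group, for which an exact permutation test cannot go below p = 0.333. The procedure was tested on simulated data. The members, the lists and the tests were chosen with earlier results of these data known. From each list up to 5 genes called at any time with the largest changes were named, or up to 2 others where fewer than 2 were called. LDH, HRU1, AT2G15880, AILP1, AT4G33560, AT5G42200, AT1G74940, MGL, the clock genes and the flanking genes were named with their values in view. Where several probe sets name a gene, the one with the highest mean signal stands for it. Alternatives were offsets of 4 and 64, quantile and median scaling, a filter at the 30th percentile, no variance trend, a replicate block and leaving out each array. Same-numbered arrays of different groups deviated with correlations of -0.04 to 0.09, so no strong shared deviation by number was seen. Whether same-numbered plants were grown or harvested together cannot be told from these values.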

Additional observations from a re-analysis of the deposited data

Results flagged for a closer look

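Among the 18 further genes known to rise under low oxygen, 9 differed between the changes at 6 and at 3 hr by limma, 8 higher and 1 lower. Of all probe sets 5.16% were higher and 3.99% lower over that step. The list was written with earlier results of these arrays known, so this count is not independent evidence. The difference on the log2 scale was 1.74 for AT1G05575, 1.66 for WIP4 (AT4G10270), 1.06 for CML38, 0.95 for AT4G33560, 0.91 for AT4G24110, 0.61 for PPDK, 0.53 for AT5G42200 and 0.51 for AT1G74940, and it was -0.26 for PDC2. Of these AT1G05575, WIP4 and PPDK kept the call under each of the 17 alternatives, AT4G33560 lost it under 11, PDC2 under 9, AT4G24110 under 6, AT5G42200 under 4, CML38 under 2 and AT1G74940 under 1.

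Of the 6 genes themselves, HRA1 (AT3G10040) lay below the controls on both 3 hr arrays and above them on both 6 hr arrays, a difference of 1.86 on the log2 scale that was not tested. AT3G27220 changed sides at each step, with untested differences of 0.86 from 3 to 6 hr, -0.80 from 6 to 12 hr and 0.36 from 12 to 24 hr. Its log2 fold changes over 0 hr at 3, 12 and 24 hr were small, at -0.27, -0.21 and 0.16 (SE 0.16 each). Of all probe sets 27.3% lay below the controls at 3 hr, 21.2% above at 6 hr, 26.4% below at 12 hr and 18.6% above at 24 hr. The share that changed sides was not counted.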

How the results depend on the processing

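The median log2 fold change of the 6 genes kept its sign at each time under every alternative. At 3 hr it was -0.20, and -0.2273 to -0.0724 without 1 array. At 6 hr it was 1.36, 1.741 with an offset of 4, 0.7845 with an offset of 64 and 1.101 to 1.617 without 1 array. At 12 hr it was 0.62, 0.8253 with an offset of 4 and 0.335 with an offset of 64. The filter at the 30th percentile removed AT1G19530 and AT5G10040, so it gave no median of all 6. Of the 18 further low-oxygen genes, the number called without 1 array ran from 0 to 3, 3 to 7, 0 to 2 and 1 to 2 at the 4 times, 4 to 11 for 6 hr over 3 hr and 0 to 3 for 12 hr over 6 hr. Without the variance trend 1 was called at each of 3, 12 and 24 hr and 0 for 12 hr over 6 hr. With an offset of 64, 1 was called at 24 hr and 4 for 12 hr over 6 hr. The replicate block, with the whole-array calls at 1706, 1934, 318 and 157, left 1 of the 18 called at 24 hr and otherwise moved no count of them by over 1.5 times. Over the whole array, the calls at 3, 6, 12 and 24 hr numbered 1870, 2129, 364 and 218. Without the trend these were 937, 1216, 129 and 58, over the 30th percentile 556 at 12 hr and 391 at 24 hr, and without 1 array 866 to 2035, 989 to 2297, 102 to 414 and 70 to 192. With fewer arrays or fewer probe sets the tests change by construction; for the offset and the trend the cause was not tested. Dim signals limit AT1G19530 and AT5G10040 on every array, and AT1G33055 on its control and 3 hr arrays. With offsets of 4 and 64 the change at 6 hr was 3.46 and 1.49 for AT1G33055. It was 2.04 and 0.50 for AT1G19530, and 0.86 and 0.21 for AT5G10040.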
